A study of Heterocephalus glaber and Mus musculus with 9 samples.

Results

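The genes described here are those with which innate immune cells sense microbial products, in the spleen of mice and of naked mole-rats (NM-Rs). Members were chosen by name alone: symbols that start with Tlr, Nlrp, Nlrc or Clec or with Casp or Card and a digit, together with a fixed set of receptors, adaptors and kinases. The rule found 51 of the 12946 genes in the table of normalized counts. They were 7 Toll-like receptors, 3 genes of lipopolysaccharide recognition, 7 adaptors and kinases, 6 NOD-like receptors, the inflammasome adaptor Pycard, 6 caspases, 5 Card genes and 16 Clec genes. Of the 15 genes that the rule gives by full name, 13 were listed, and Aim2 and Ticam2 were not listed under those symbols.

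RNA from whole spleen was sequenced in 3 groups of 3 animals, with 1 library per animal. The mice were male C57Bl/6N animals aged 2 months. The NM-Rs carried the strain label african naked mole-rat and were divided by spleen size. The ssNM-Rs, with small spleens, were males numbered 2, 3 and 6 and aged 30, 26 and 23 months. The lsNM-Rs, with enlarged spleens, were numbered 1, 4 and 5 and aged 24, 29 and 23 months, and number 4 was female while the other two were males. All animals were described as healthy and untreated, and each species was kept in its own usual housing, warmer for the NM-Rs. Species, age and housing therefore cannot be told apart, and neither can the genome, the gene models and the naming of homologues that differ between the species.

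Toll-like receptors recognise bacterial and viral products at the cell surface or in endosomes and signal through the adaptors Myd88 and Ticam1 to kinases of the Irak family and to NF-kB. NOD-like receptors detect such products inside the cell, and some of them build inflammasomes with Pycard and inflammatory caspases. C-type lectins bind sugars and lipids of microbes or of damaged cells, and those of myeloid cells often signal through Syk and Card9. In the spleen these receptors are found on macrophages, neutrophils, dendritic cells, endothelium and B cells.

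The libraries held from 7815326 to 18387599 reads, with a median of 10965902. All 5 genes of a spleen identity list were in the table, and their summed level was 1512 to 2186 normalized counts in mice and 1715 to 2269 in NM-Rs. Among the NM-Rs, ssNM-R 6 stood apart: a list of liver genes summed to 2701 normalized counts in it, against 84.8 to 838 in the other 5 NM-Rs and 143 to 325 in the mice. It also gave the lowest NM-R value for 21 of the 51 members, where it did so for 22.8% of 12797 genes, and the highest value for 11 members, against 20% of genes. Values without it are given for the members called and for Tlr1, Tlr7, Tlr8, Cd14, Irak2 and Clec11a. Between the cohorts they are given for Lbp, Clec4d, Clec5a, Irak3 and Irak4.

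NM-R spleens differed from mouse spleens for most of the sensing genes, in equal numbers of either direction. With limma on log2(normalized count + 1) and Benjamini-Hochberg adjustment over all genes, 19 members were higher and 19 lower in NM-Rs (n = 6) than in mice (n = 3) at an adjusted p below 0.05. Those 38 of 51 members are 74.5%, while 78.5% of all genes in the table were called in this comparison, 39.7% as higher and 38.8% as lower. The share called was thus close to that of the table, and the median log2 fold change of the members was -0.07 against 0.01 over all genes. The values of the species did not overlap for 34 members, 16 above and 18 below the mice, while 72.6% of all genes were separated in this way, 36.4% above and 36.2% below. A log2 fold change over 1 in size was found for 30 members, against 53.5% of all genes. Without ssNM-R 6 the test called 40 members, 20 of them higher, where 78.9% of all genes were called and 50.2% of those calls were higher. A bulk library does not separate fewer cells of a type from less RNA per cell, and with 1 library per animal the p-values measure the spread between these animals only.

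The counts by role were as follows. All 3 genes of lipopolysaccharide recognition were higher in NM-Rs, and of the 7 Toll-like receptors 3 were higher and 3 lower. Among the adaptors and kinases 1 was higher and 3 were lower, and among the 6 NOD-like receptors none was higher and 3 were lower. Of the caspases 3 were higher and 2 lower, of the Card genes 2 and 2, and of the Clec genes 7 and 6. Pycard was not called.

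**Figure D1:**
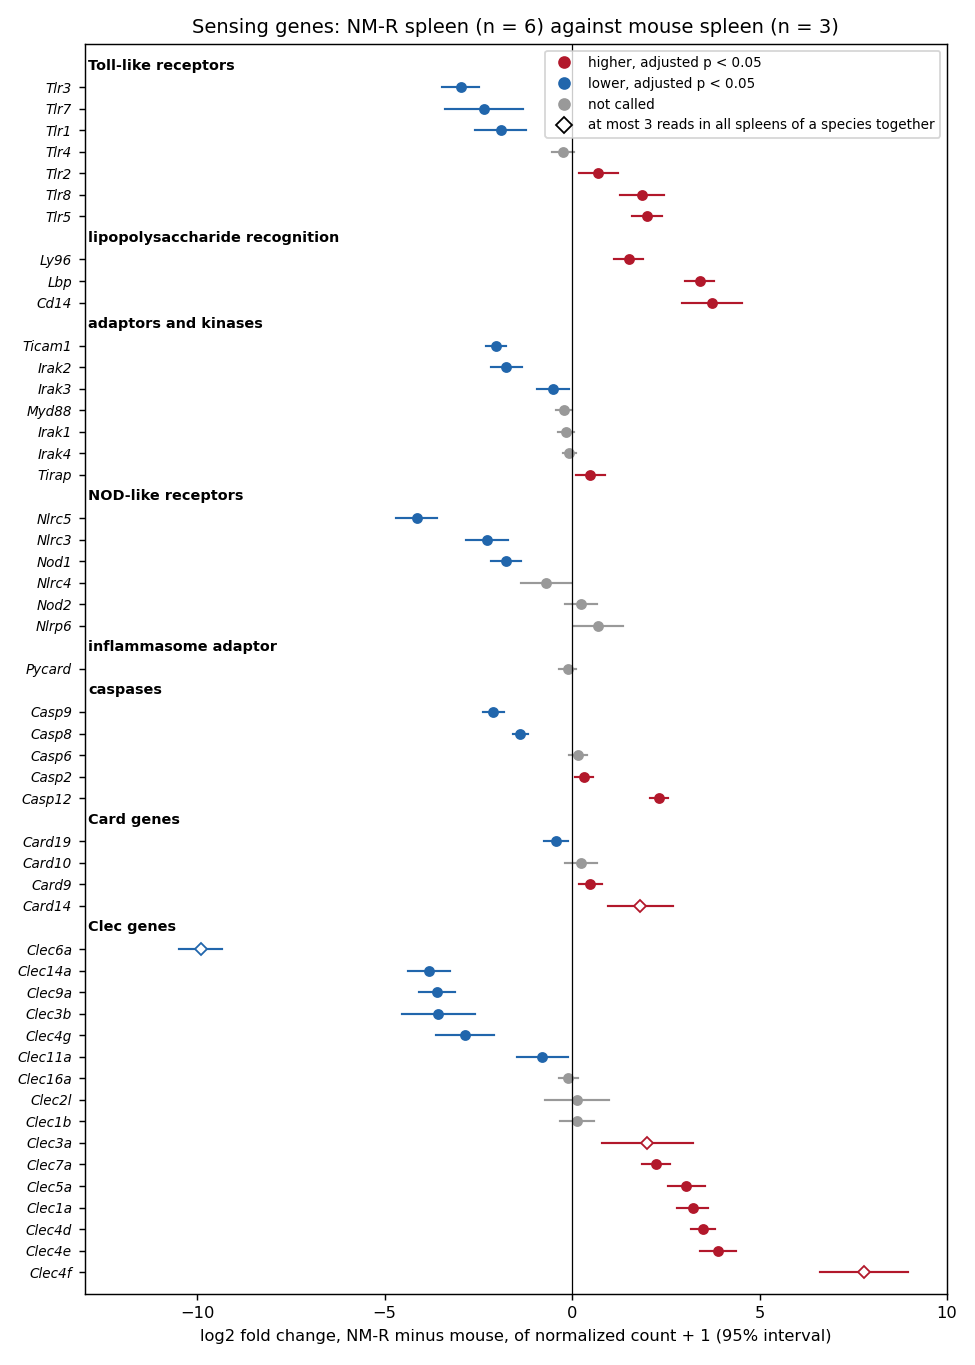
Log2 fold change of members between NM-R (n = 6) and mouse (n = 3) spleens with its 95% interval, in order of role, where red marks higher and blue lower at an adjusted p below 0.05. Cd14, Lbp and Ly96 lie to the right of 0, Nlrc5, Nlrc3 and Nod1 to the left, and open diamonds mark the 4 genes with at most 3 reads in one species.

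Cell type markers moved between the species as well. All 11 B cell markers were lower in NM-Rs, with sums of 3430 to 8073 normalized counts against 62154 to 63082 in mice. All 11 T cell markers were lower too, with sums of 3815 to 7631 against 13461 to 14750. The 5 dendritic cell markers in the table, of 8 listed, were lower in NM-Rs and summed to 703 to 1159 normalized counts against 4688 to 5950. Of the 9 neutrophil markers in the table, of 16 listed, 7 were higher and 2 lower, and their sums were 26856 to 46219 in NM-Rs and 8233 to 10679 in mice. The 11 macrophage markers in the table, of 14 listed, divided into 4 higher and 5 lower, with overlapping sums of 61743 to 90163 and 52547 to 65177. None of the markers of these lists in the table was at 0 in all spleens of a species.

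Other lists moved too. All 9 erythroid markers in the table, of 12 listed, were higher in NM-Rs, with sums of 142697 to 222633 normalized counts against 24294 to 68815 in mice. Of 4 megakaryocyte markers, of 7 listed, 3 were higher and 1 lower, with sums of 6897 to 12372 against 2859 to 4015. The 4 NK cell markers in the table, of 7 listed, were all lower and summed to 138 to 263 against 1658 to 2070. Of 4 monocyte markers, of 6 listed, 2 were lower, with overlapping sums of 4653 to 8391 and 6682 to 8864. Of 3 pancreas markers, of 7 listed, 2 were higher, one of them Cel at 0 in all mice, and 1 was lower, with sums of 134 to 230 against 364 to 497. The part of all these cell types in the values of the sensing genes was not tested.

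Among the Toll-like receptors of the cell surface, Tlr5, the receptor for flagellin, was higher in NM-Rs. Its normalized counts were 80.3, 65.2 and 53.5 in the mice, 194, 287 and 272 in the ssNM-Rs and 308, 295 and 246 in the lsNM-Rs. Every NM-R lay above every mouse, at 4.03 times the mouse mean (log2 fold change 2.00, SE 0.18, limma adjusted p = 3.4e-06). Tlr1, which pairs with Tlr2 on bacterial lipopeptides, went the other way. The mice had 1938, 1840 and 1946 normalized counts of Tlr1, the ssNM-Rs 514, 674 and 203 and the lsNM-Rs 674, 601 and 613. The lowest NM-R was ssNM-R 6, and all 6 were below the mice (log2 fold change -1.90, SE 0.30, limma adjusted p = 2.11e-04). Without ssNM-R 6 the log2 fold change of Tlr1 was -1.65 (limma adjusted p = 5.69e-07).

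Tlr2 itself was measured at 364, 313 and 315 normalized counts in the mice, 346, 510 and 764 in the ssNM-Rs and 573, 430 and 722 in the lsNM-Rs. One ssNM-R fell within the range of the mice and the other 5 NM-Rs lay above it (log2 fold change 0.70, SE 0.24, limma adjusted p = 0.0195). This call was lost without mouse 2 (adjusted p = 0.0663) or mouse 3 (adjusted p = 0.0669). It was also lost in limma with the depth class term (log2 fold change 0.50, adjusted p = 0.107). For Tlr4, the receptor for lipopolysaccharide, values of 426 to 556 normalized counts in mice and 364 to 470 in NM-Rs overlapped. Its log2 fold change of -0.25 had a 95% interval of -0.54 to 0.05 and was not called (limma adjusted p = 0.107), although leaving out mouse 3 gave an adjusted p of 0.0464.

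The endosomal receptors, which recognise nucleic acids, also divided. Tlr3, the receptor for double-stranded RNA, had 465, 426 and 481 normalized counts in the mice and between 40.4 and 80.7 in the NM-Rs, with a median of 56.1. The NM-R mean was 7.77 times lower, without overlap (log2 fold change -2.97, SE 0.22, limma adjusted p = 7.32e-07). Tlr7 and Tlr8, both receptors for single-stranded RNA, were called in opposite directions. For Tlr7 the mice had 1085, 971 and 904 normalized counts, the ssNM-Rs 216, 315 and 50.6 and the lsNM-Rs 299, 195 and 253. For Tlr8 the mice had 412, 305 and 279, the ssNM-Rs 1153, 1497 and 569 and the lsNM-Rs 1463, 1615 and 1289. Neither gene overlapped between the species, and ssNM-R 6 was the lowest NM-R for both. The log2 fold change was -2.35 for Tlr7 (SE 0.47, limma adjusted p = 9.96e-04) and 1.87 for Tlr8 (SE 0.26, limma adjusted p = 9.58e-05). Without ssNM-R 6 it was -1.96 for Tlr7 (limma adjusted p = 5.39e-06) and 2.07 for Tlr8 (limma adjusted p = 1.62e-06).

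**Figure D2:**
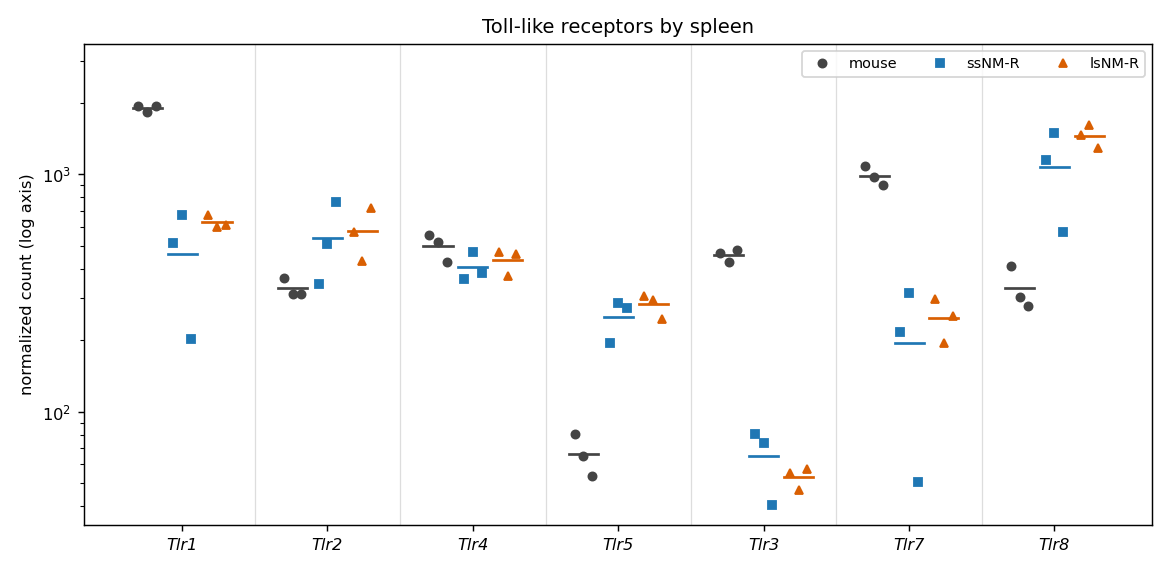
Normalized counts of the 7 Toll-like receptors in each spleen on a log axis, where points are animals and bars are group means (n = 3 per group). Tlr7 is higher in all mice and Tlr8 in all NM-Rs, while the groups overlap for Tlr4.

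Tlr7 and Tlr8 are neighbours in the mouse genome. In the mm9 annotation Tlr8 lies on the X chromosome at chrX:163680626-163702261 and Tlr7 at chrX:163742861-163768490, both on the minus strand, with 40.6 kb and no other protein-coding gene between them. A further pair of neighbours, Clec4d at chr6:123212125-123225286 and Clec4e at chr6:123231807-123239889, lies 6.52 kb apart on opposite strands, and both of these were higher in NM-Rs. The mouse sequences that precede Tlr8, Clec4d and Clec4e are shown as examples. Among the 48 members found in this annotation, Clec4d and Clec4e are the neighbours called in the same direction. Clec6a, Nlrc5 and Card19 were not found there, and their neighbours were not examined. Tlr8 is the higher member of a pair called in opposite directions. Clec9a and Clec7a are another such pair, and their sequences are not shown. Each is the 300 bases before the annotated start of the gene in mm9, written 5′ to 3′ on the strand of the gene, with capitals where a motif matched.
Tlr8, chrX:163702262-163702561 (minus strand): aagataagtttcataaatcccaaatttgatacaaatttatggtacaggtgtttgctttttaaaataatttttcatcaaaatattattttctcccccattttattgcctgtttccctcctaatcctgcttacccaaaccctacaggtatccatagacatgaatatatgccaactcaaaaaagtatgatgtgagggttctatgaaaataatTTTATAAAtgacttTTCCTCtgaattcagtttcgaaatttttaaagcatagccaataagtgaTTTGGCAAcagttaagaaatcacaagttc
Clec4d, chr6:123211825-123212124 (plus strand): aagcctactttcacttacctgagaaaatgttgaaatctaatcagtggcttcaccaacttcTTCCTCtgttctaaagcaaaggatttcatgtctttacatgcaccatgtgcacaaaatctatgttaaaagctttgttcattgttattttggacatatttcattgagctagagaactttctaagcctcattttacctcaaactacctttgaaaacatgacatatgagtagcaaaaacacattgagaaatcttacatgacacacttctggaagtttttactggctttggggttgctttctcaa
Clec4e, chr6:123239890-123240189 (minus strand): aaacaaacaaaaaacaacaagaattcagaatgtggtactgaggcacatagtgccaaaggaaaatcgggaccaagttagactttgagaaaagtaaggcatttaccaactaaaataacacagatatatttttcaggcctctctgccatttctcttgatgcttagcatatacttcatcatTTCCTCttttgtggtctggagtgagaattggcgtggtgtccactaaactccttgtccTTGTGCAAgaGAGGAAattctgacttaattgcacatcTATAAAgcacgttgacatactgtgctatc
The motifs searched on both strands were GAGGAA, the core bound by the myeloid factor PU.1, TTGCNNAA, as bound by C/EBP factors, and TATAAA of the TATA box. Of 22344 mouse promoters of this length, 26.9% held the first, 11.2% the second and 14.5% the third. The Clec4e sequence held 2 matches to the PU.1 core and 1 match to each of the others, while that of Clec4d held 1 match to the PU.1 core alone. The Tlr8 sequence held 1 PU.1 core, 1 C/EBP match and 2 overlapping TATAAA matches on opposite strands. These letters describe the mouse genome only, and the NM-R genome was not analysed here.

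Cd14, Lbp and Ly96, which act with Tlr4 in the recognition of lipopolysaccharide, were higher in NM-Rs, while Tlr4 was not called. Cd14, the co-receptor that hands lipopolysaccharide to Tlr4, had 276, 302 and 272 normalized counts in the mice, 2511, 4154 and 9167 in the ssNM-Rs and 2384, 2591 and 4918 in the lsNM-Rs. All NM-Rs were above the mice and ssNM-R 6 was far above the rest (15.1 times the mouse mean, log2 fold change 3.73, SE 0.36, limma adjusted p = 5.86e-06). Without that spleen the log2 fold change of Cd14 was 3.48 (limma adjusted p = 1.34e-06). Lbp, the serum protein that binds lipopolysaccharide, had 64.2, 71.7 and 40.9 normalized counts in the mice, 421, 509 and 431 in the ssNM-Rs and 929, 853 and 743 in the lsNM-Rs. The 3 groups did not overlap, in the order mouse, ssNM-R and lsNM-R, and the NM-R mean was 11 times that of mice (log2 fold change 3.40, SE 0.18, limma adjusted p = 7.83e-08). Lbp is best known from liver, and the liver list summed to 84.8, 335 and 2701 normalized counts in the ssNM-Rs and to 225, 190 and 838 in the lsNM-Rs, in the same order. Of the 7 liver markers in the table, of 8 listed, 1 was higher and 2 were lower in NM-Rs than in mice. The part of liver RNA in the Lbp values was not tested.

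Ly96, also called MD-2, is the partner of Tlr4 that holds the lipid. It was measured at 107, 78.3 and 115 normalized counts in the mice, 260, 251 and 275 in the ssNM-Rs and 237, 348 and 346 in the lsNM-Rs. The species did not overlap (2.85 times the mouse mean, log2 fold change 1.51, SE 0.17, limma adjusted p = 1.94e-05).

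Of the adaptors, Ticam1 (TRIF), which links Tlr3 and Tlr4 to the interferon response, was lower in NM-Rs. The mice had 465, 449 and 453 normalized counts of it, and the NM-Rs between 91.7 and 128 with a median of 111. The mouse mean was 4.09 times the NM-R mean (log2 fold change -2.03, SE 0.12, limma adjusted p = 1.65e-07). Myd88, the adaptor of most other Toll-like receptors, had 967, 950 and 1009 normalized counts in the mice, 851, 883 and 929 in the ssNM-Rs and 927, 798 and 697 in the lsNM-Rs. All NM-Rs lay below the mice, by a small margin, and the difference was not called (log2 fold change -0.21, 95% interval -0.43 to 0.01, limma adjusted p = 0.0702). It was called with each spleen scaled to the same total (adjusted p = 0.0301) and without lsNM-R 1 (adjusted p = 0.0161). Tirap, which brings Myd88 to the membrane, had 215, 141 and 148 normalized counts in the mice and 163 to 264 in the NM-Rs, with overlap (log2 fold change 0.48, SE 0.17, limma adjusted p = 0.0266). Without mouse 2, mouse 3 or ssNM-R 3 it was no longer called, with adjusted p-values of 0.124, 0.105 and 0.0546. The same held in limma with the depth class term (adjusted p = 0.0832) and with each spleen scaled to the same total (adjusted p = 0.0551).

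The kinases that these adaptors recruit did not move together. Irak2, which sustains signalling, had 1039, 952 and 947 normalized counts in the mice and between 188 and 341 in the NM-Rs, without overlap (log2 fold change -1.75, SE 0.19, limma adjusted p = 1.11e-05). Without ssNM-R 6, the lowest NM-R, the log2 fold change of Irak2 was -1.61 (limma adjusted p = 5.71e-07). Irak3, also called IRAK-M, is a negative regulator found mostly in myeloid cells. It had 414, 430 and 403 normalized counts in the mice, 312, 279 and 166 in the ssNM-Rs and 412, 336 and 300 in the lsNM-Rs, where 1 lsNM-R reached the range of the mice. Its log2 fold change of -0.52 (SE 0.19, limma adjusted p = 0.031) was no longer called without any one of the mice, lsNM-R 4 or lsNM-R 5, with adjusted p-values from 0.0547 to 0.0925. The same held in limma with the depth class term (adjusted p = 0.156) and upper quartile scaling (adjusted p = 0.0605). For Irak1 and Irak4, the kinases nearest to Myd88, the species overlapped and neither was called. The log2 fold change was -0.16 for Irak1 (95% interval -0.36 to 0.04, limma adjusted p = 0.132) and -0.07 for Irak4 (95% interval -0.25 to 0.11, limma adjusted p = 0.439), which became 0.04 under upper quartile scaling.

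**Figure D3:**
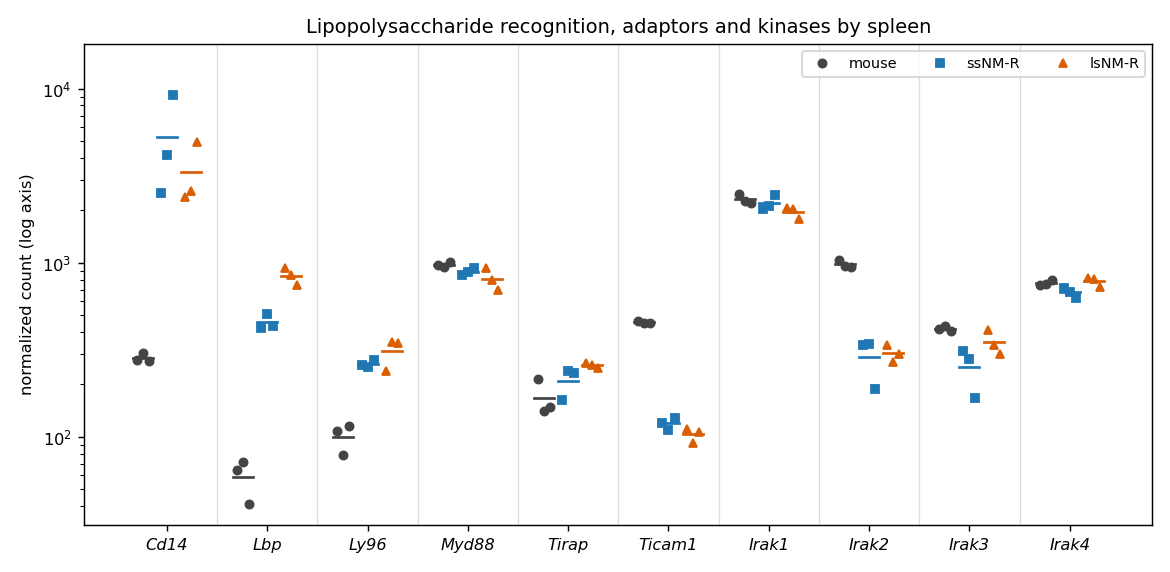
Normalized counts of the lipopolysaccharide recognition genes, adaptors and kinases in each spleen on a log axis, where points are animals and bars are group means (n = 3 per group). Cd14, Lbp and Ly96 lie higher in all NM-Rs, Ticam1 and Irak2 lower, and Irak1 and Irak4 overlap with the mice.

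The NOD-like receptors were led by Nlrc5, a regulator of MHC class I genes. The mice had 3546, 2988 and 3276 normalized counts of Nlrc5, the ssNM-Rs 263, 246 and 169 and the lsNM-Rs 249, 114 and 122. The mouse mean was 16.9 times the NM-R mean (log2 fold change -4.15, SE 0.24, limma adjusted p = 1.7e-07). Nlrc3, described as a brake on T cell and Toll-like receptor signalling, had 697, 629 and 502 normalized counts in the mice and 76.6 to 212 among NM-Rs (log2 fold change -2.26, SE 0.25, limma adjusted p = 1.55e-05). Nod1, a sensor of peptidoglycan from mainly Gram-negative bacteria, had 2308, 1679 and 1867 normalized counts in the mice and 442 to 751 among NM-Rs (log2 fold change -1.77, SE 0.18, limma adjusted p = 8.51e-06). None of these 3 genes overlapped between the species.

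Nod2, the sensor of muramyl dipeptide, was measured at 167, 152 and 99.6 normalized counts in the mice and 132 to 192 in the NM-Rs. The groups overlapped and no call was made (log2 fold change 0.24, 95% interval -0.18 to 0.66, limma adjusted p = 0.268). The other 2 NOD-like members, Nlrc4 and Nlrp6, missed the threshold with log2 fold changes of -0.70 and 0.70 (limma adjusted p = 0.0512 and 0.0509). The inflammasome adaptor Pycard, also called ASC, had 597 to 689 normalized counts in the mice and 545 to 717 in the NM-Rs, a log2 fold change of -0.11 with a 95% interval of -0.34 to 0.11 (limma adjusted p = 0.313).

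Among the caspases, Casp12, which belongs to the inflammatory group, was higher and Casp9 and Casp8, the initiators of the mitochondrial and the death receptor pathway, were lower. The mice had 137, 147 and 135 normalized counts of Casp12, the ssNM-Rs 685, 715 and 576 and the lsNM-Rs 773, 660 and 796. Every NM-R was above every mouse (5.01 times the mouse mean, log2 fold change 2.31, SE 0.11, limma adjusted p = 3.8e-08). Casp9 had 856, 879 and 876 normalized counts in the mice and 172 to 248 among NM-Rs (log2 fold change -2.10, SE 0.13, limma adjusted p = 1.87e-07). Casp8 had 1343, 1396 and 1402 in the mice and 444 to 586 among NM-Rs (log2 fold change -1.38, SE 0.09, limma adjusted p = 2.62e-07). The initiator Casp2 was modestly higher, without overlap, at a log2 fold change of 0.32 (limma adjusted p = 0.016). The call of Casp2 was lost without mouse 1 (adjusted p = 0.0514) or mouse 2 (adjusted p = 0.056). Casp6 was not called.

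Card9 is a scaffold that works with Bcl10 and Malt1 downstream of myeloid lectins. Card9 had 192, 161 and 175 normalized counts in the mice, 234, 312 and 234 in the ssNM-Rs and 223, 216 and 267 in the lsNM-Rs. It was higher in every NM-R, at 1.41 times the mouse mean (log2 fold change 0.48, SE 0.14, limma adjusted p = 0.009). Card19 overlapped between the species, with 226 to 299 normalized counts in the mice and 167 to 256 among NM-Rs (log2 fold change -0.43, SE 0.15, limma adjusted p = 0.022). Its call was lost without mouse 1 (adjusted p = 0.0809) or mouse 3 (adjusted p = 0.0953). The same held in limma with the depth class term (adjusted p = 0.114) and upper quartile scaling (adjusted p = 0.0632). Card14 was near the floor, with 3 reads over the mice and 47 over the NM-Rs, a ratio of 6.71 per unit of depth with an exact 95% interval of 2.16 to 33.7 that covers counting error only. Card10 was not called.

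The lowest and the highest log2 fold change of all members belonged to Clec genes, Clec6a and Clec4f, each near the floor in mice or in NM-Rs. The myeloid lectins Clec4d (MCL, or Dectin-3) and Clec4e (Mincle), receptors for mycobacterial glycolipids that act together, were higher in all NM-Rs. Clec4d had 78.3, 51.1 and 70.3 normalized counts in the mice, 559, 628 and 557 in the ssNM-Rs and 1107, 892 and 891 in the lsNM-Rs, at an NM-R mean 11.6 times that of mice (log2 fold change 3.49, SE 0.15, limma adjusted p = 2.05e-08). Clec4e had 52.2, 55.4 and 55.6 normalized counts in the mice, 551, 658 and 1011 in the ssNM-Rs and 1041, 671 and 1156 in the lsNM-Rs, at 15.6 times the mouse mean (log2 fold change 3.88, SE 0.21, limma adjusted p = 1.17e-07). For both genes the mice lay far below the lowest NM-R. The neutrophil, erythroid and megakaryocyte marker sums were also higher in every NM-R than in any mouse, as given above. The part of these cell types in Clec4d and Clec4e was not tested.

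Clec5a, a myeloid receptor that signals through Dap12, and Clec7a (Dectin-1), the receptor for fungal beta-glucan, followed the same direction. Clec5a had 84.3, 73.9 and 81.8 normalized counts in the mice, 488, 745 and 373 in the ssNM-Rs and 839, 1140 and 682 in the lsNM-Rs (log2 fold change 3.05, SE 0.22, limma adjusted p = 6.95e-07). Clec7a had 624, 512 and 451 normalized counts in the mice, 2997, 2795 and 1757 in the ssNM-Rs and 2689, 2505 and 2360 in the lsNM-Rs (log2 fold change 2.24, SE 0.17, limma adjusted p = 1.01e-06). Clec1a, found on endothelium and myeloid cells, had 81.3, 66.3 and 59.8 in the mice and 503 to 862 among NM-Rs (log2 fold change 3.22, SE 0.19, limma adjusted p = 1.67e-07). None of the 3 overlapped between the species.

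Clec4f, a galactose-binding lectin known from the macrophages of mouse liver, was near absent from the mouse spleens at this depth. It had 1 read over the 3 mice and 1810 over the 6 NM-Rs, with 354, 703 and 143 normalized counts in the ssNM-Rs and 473, 147 and 196 in the lsNM-Rs. The ratio per unit of depth was 775, with an exact 95% interval of 139 to 30639 for counting error only. The part of liver RNA in these values, for which the sums are given above, was not tested. Clec3a was at 0 in all mice and held 26 reads over the NM-Rs, at least 3.71-fold higher against a floor of 3 reads over the mice. ssNM-R 2 also had no read of Clec3a.

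Clec6a (Dectin-2), a receptor for fungal mannans, showed the reverse pattern. The mice had 1059, 936 and 1137 normalized counts, or 3000 reads together, and the 6 NM-Rs held 1 read, in ssNM-R 6. The ratio was 7004 with an exact 95% interval of 1256 to 276728 for counting error only. It was the only member whose 6 NM-R values were equal to those of another gene of the table, all of them at or near 0.

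Clec9a, Clec14a, Clec4g and Clec3b were lower in NM-Rs. Clec9a, a receptor for dead cells on cross-presenting dendritic cells, had 929, 663 and 738 normalized counts in the mice, 68.4, 55.5 and 68.9 in the ssNM-Rs and 52.3, 89.6 and 47.0 in the lsNM-Rs (log2 fold change -3.61, SE 0.22, limma adjusted p = 1.93e-07). Dendritic cell marker sums were lower in every NM-R as well, as were those of B, T and NK cells. The part of these cells in Clec9a was not tested. Clec14a, an endothelial lectin, had 374, 302 and 239 normalized counts in the mice and 14.8 to 28.2 among NM-Rs (log2 fold change -3.82, SE 0.25, limma adjusted p = 3.51e-07). Clec4g (LSECtin), of sinusoidal endothelium, had 194, 384 and 311 in the mice and 25.9 to 70.6 among NM-Rs (log2 fold change -2.85, SE 0.34, limma adjusted p = 2.94e-05). Clec3b, the plasminogen-binding tetranectin, was lower too, from lower levels of 30.1 to 39.8 normalized counts in the mice and 0.627 to 4.94 in the NM-Rs.

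Clec11a, a growth factor of haematopoietic and bone cells, was barely past the threshold (log2 fold change -0.79, SE 0.31, limma adjusted p = 0.0381), with ssNM-R 6 at 84.7 normalized counts inside the mouse range of 67.4 to 86.3. Leaving out any spleen other than ssNM-R 6 or lsNM-R 4 ended this call, with adjusted p-values up to 0.121. It also ended under upper quartile scaling (limma adjusted p = 0.0739), edgeR (adjusted p = 0.0635) and DESeq2 (adjusted p = 0.0506). Without ssNM-R 6 the log2 fold change of Clec11a was -0.98 (limma adjusted p = 0.0042). Clec1b, Clec2l and Clec16a were not called. Clec1a, Clec1b, Clec9a and Clec7a lie next to each other on mouse chromosome 6. In mm9 the annotated span of Clec1a, chr6:129339308-129402018 on the minus strand, contains Clec1b and Clec9a on the plus strand, and whether strand was used in counting is not given in the sources used here, so reads of these 3 mouse genes may not be fully separated.

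**Figure D4:**
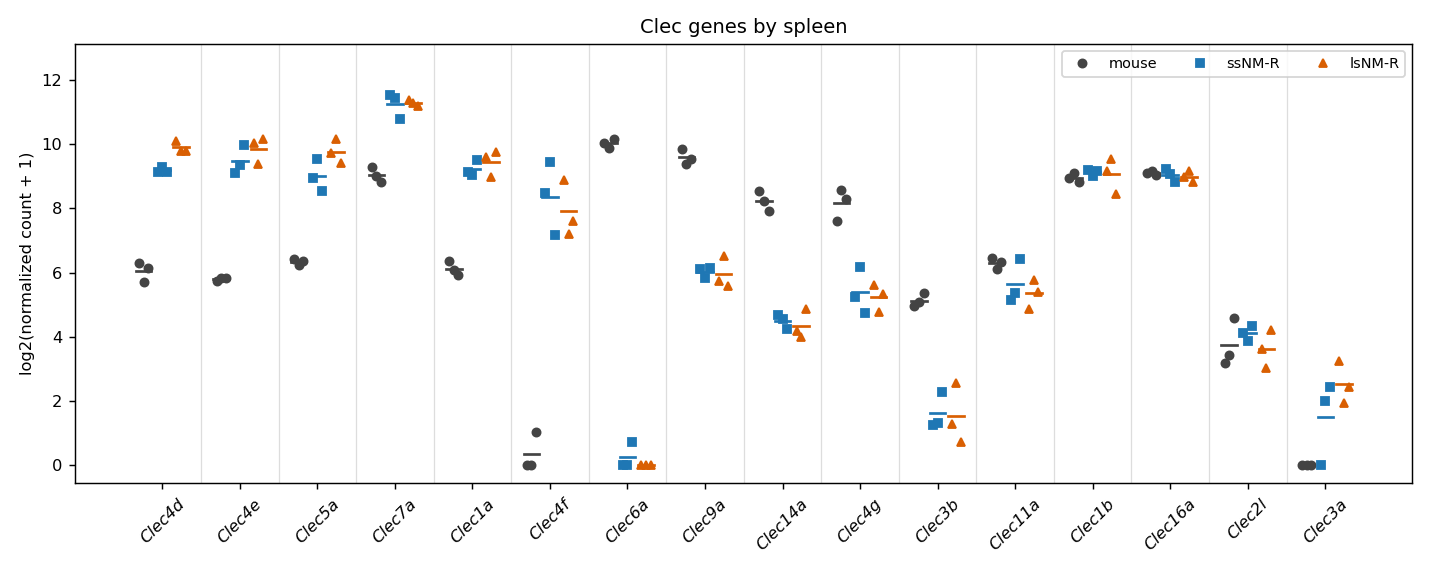
Log2(normalized count + 1) of the 16 Clec genes in each spleen, where points are animals and bars are group means (n = 3 per group). Clec4d, Clec4e, Clec5a, Clec7a, Clec1a and Clec4f are higher in all NM-Rs, and Clec6a, Clec9a, Clec14a, Clec4g and Clec3b are lower.

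Downstream of these receptors, 66 of 92 listed pathway genes were in the table, and 13 of them were higher and 38 lower in NM-Rs. Those 51 are 77.3% of the 66, against 78.5% of all genes called, 39.7% as higher and 38.8% as lower, and the median log2 fold change was -0.88 against 0.01 over all genes. Of 18 genes that signal to NF-kB 15 were lower and 1 was higher, and of 10 genes of lectin receptor signalling 7 were lower and 1 was higher. Among the inflammasome partners and outputs 5 were higher and 6 lower of 13, and in the interferon arm 1 was higher and 4 were lower of 8. Receptor partners gave 2 higher and 4 lower of 10, and soluble recognition proteins 3 higher and 2 lower of 7.

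The lowest pathway genes were Pglyrp2, an amidase of peptidoglycan (log2 fold change -6.12), Malt1, the protease that works with Card9 (-4.70), Pglyrp1, a peptidoglycan-binding protein (-4.33), and Pik3ap1 (BCAP), an adaptor of B cells and Toll-like receptors (-3.0). Malt1 averaged 2918 ± 169 normalized counts over the mice (SD, n = 3) and 115 ± 29.0 over the NM-Rs (SD, n = 6). The highest were Sftpd, a soluble lectin best known from lung (log2 fold change 5.03), Colec11, a collectin (3.97), Il1r2, the decoy receptor for interleukin 1 (3.10), and Pglyrp4, a peptidoglycan-binding protein (2.29). Il1r2 averaged 49.4 ± 12.0 normalized counts over the mice (SD, n = 3) and 456 ± 189 over the NM-Rs (SD, n = 6). Sftpd and Pglyrp4 had mouse means below 1 normalized count, so their fold changes depend on the pseudocount of 1.

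Each cohort was also compared with the same 3 mice. In ssNM-Rs 16 members were higher and 19 lower, where 75.5% of all genes were called (38% higher, 37.5% lower). In lsNM-Rs 19 were higher and 18 lower, where 75% of all genes were called (38.1% higher, 37% lower). Both comparisons share the mice. For Lbp the log2 fold change was 2.96 in ssNM-Rs and 3.85 in lsNM-Rs, for Cd14 4.01 and 3.46, for Clec4d 3.13 and 3.85, and for Nlrc5 -3.87 and -4.42. For Tlr7 it was -2.69 and -2.0 and for Tlr8 1.60 and 2.14.

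Between lsNM-Rs and ssNM-Rs no member was called by limma (0% of all genes were called), and 4 members had an unadjusted p below 0.05, which 8.79% of all genes had. The edgeR quasi-likelihood test on recovered reads called none either, whereas DESeq2 called 2 members, Lbp (adjusted p = 0.00179) and Clec4d (adjusted p = 0.0059), where it called 0.44% of all genes. Lbp, with the values given above, was 421 to 509 normalized counts in ssNM-Rs and 743 to 929 in lsNM-Rs. Its log2 difference was 0.89 with a 95% interval of 0.43 to 1.35 (limma adjusted p = 0.442), and 3 of 3 lsNM-Rs lay above all ssNM-Rs. Clec4d was 557 to 628 in ssNM-Rs and 891 to 1107 in lsNM-Rs, also without overlap, at a log2 difference of 0.72 with a 95% interval of 0.34 to 1.10 (limma adjusted p = 0.442). Over all alternatives the adjusted p of either gene ranged from its DESeq2 value to 0.731.

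The next members were Clec5a, Irak3 and Irak4. Clec5a differed by 0.75 on the log2 scale (limma adjusted p = 0.485), Irak3 by 0.50 (limma adjusted p = 0.565) and Irak4 by 0.21 (limma adjusted p = 0.569), each with a higher mean in lsNM-Rs. Without ssNM-R 6 these differences shrank to 0.52 for Clec5a, 0.23 for Irak3 and 0.16 for Irak4. The cohorts overlapped for Clec5a and Irak3 and not for Irak4. In all, 4 members did not overlap between the cohorts, Lbp, Clec4d, Tirap and Irak4, each of them higher in lsNM-Rs, while 13.1% of all genes were separated in either direction and 6.84% with lsNM-Rs above. The neutrophil marker sums did not overlap either, at 26856 to 35171 normalized counts in ssNM-Rs and 36483 to 46219 in lsNM-Rs. Of the 9 markers in these sums, none was called by limma between the cohorts. At an unadjusted limma p below 0.05, which 8.79% of all genes had, 5 were higher and 1 was lower in lsNM-Rs. Their log2 differences ran from -0.93 to 1.34, and the part of neutrophils in Lbp and Clec4d was not tested.

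Sequencing depth differed within the cohorts. ssNM-R 2, ssNM-R 3 and lsNM-R 1 had under 12000000 reads, and the other 3 NM-Rs had more. Within the shallow libraries the log2 difference between lsNM-R and ssNM-R was 1.00 for Lbp and 0.90 for Clec4d, and within the deep ones 0.88 and 0.68, with 1 or 2 spleens on either side and no test. Without ssNM-R 6 the difference was 0.86 for Lbp and 0.69 for Clec4d. The only deep ssNM-R is ssNM-R 6, so the values within the deep libraries rest on it.

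**Figure D5:**
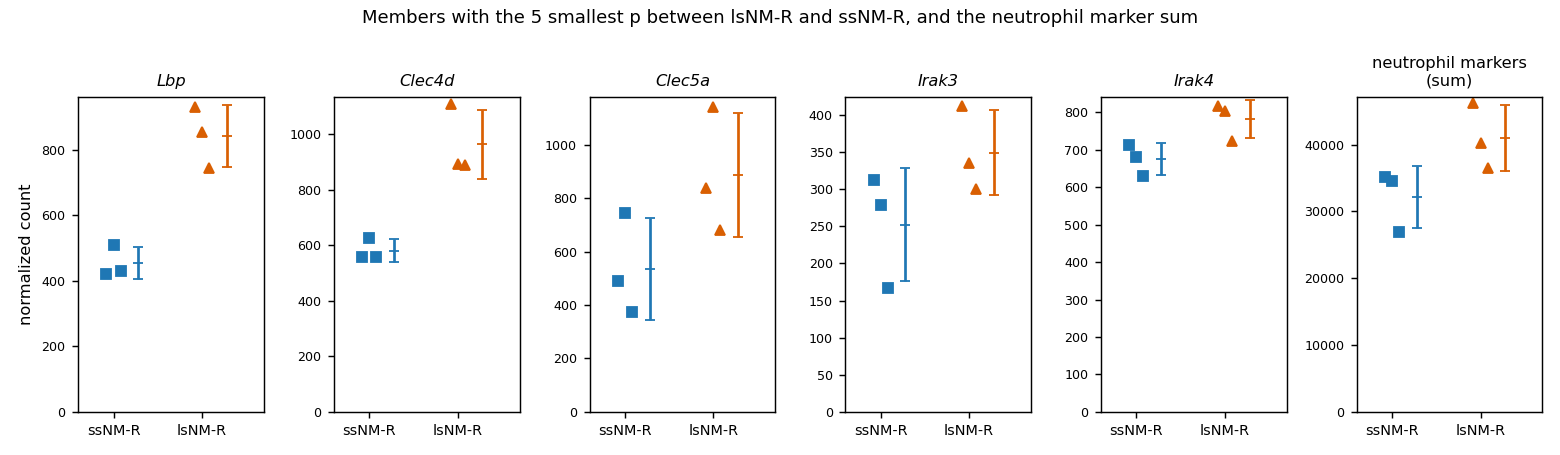
Normalized counts in each ssNM-R and lsNM-R spleen of the 5 members with the smallest p between the cohorts, and the summed counts of 9 neutrophil markers; points are animals and bars are the mean ± SD (n = 3 per cohort). The cohorts are separate for Lbp, Clec4d, Irak4 and the neutrophil sum and overlap for Clec5a and Irak3.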

How the data were processed

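RNA from 9 spleens was sequenced. The authors aligned the reads with STAR 2.5.3a (mm9 for mice, an NM-R genome for NM-Rs), counted them per gene with HTSeq 0.10.0, named NM-R genes after mouse homologues and scaled the merged counts with the size factors of DESeq2. The deposited signal values are therefore normalized counts, not divided by gene length. The labels and the methods name different instruments, kits and library types, and which holds is not known. Dividing each library by its step gave whole reads for 100% of the values (tolerance 0.001). Depth was 7815326 to 18387599 reads.

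Values were fitted as log2(normalized count + 1) with limma 3.58.1 in R 4.3.3. The 9 spleens entered 1 fit of group means, moderated by empirical Bayes with a variance trend. Tests were 2-sided, adjusted by Benjamini-Hochberg over 12946 genes and called at an adjusted p below 0.05. NM-R stands for the mean of both cohorts. Folds are ratios of group means. The fit was tested on simulated data in which only a small share of the genes was changed. That share was far below the share called between the species, so the simulation does not cover this case. Alternatives were pseudocounts of 0.5 and 5, a mean of at least 10 normalized counts, other scalings, no trend, only the groups compared, a depth class term, genes with identical NM-R values counted once, a replicate block, edgeR 4.0.16 and DESeq2 1.42.0 on recovered reads, and each spleen left out in turn.

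The genes named are all Toll-like receptors, lipopolysaccharide recognition genes, adaptors, kinases, Nod1, Nod2 and Pycard. In the other roles they are the 6 highest and 6 lowest called fold changes whose higher species averaged 50 normalized counts or more, and members with 3 reads or fewer over a species. For lsNM-R against ssNM-R they are the members with an unadjusted p below 0.05 and at least the 5 smallest p, and for the pathway lists the 4 highest and 4 lowest. Another 8 members, such as Clec3b, fall outside this rule and were named after their values were seen. Members and lists were chosen with earlier results of these data known. Positions and sequences are from mm9 with GENCODE annotation, in which 48 of the 51 members were found. Sequence of the NM-R genome was not used here. Some members that the rule names, and some sequences, are not reported here, though the counts include those members.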

Additional observations from a re-analysis of the deposited data

Results flagged for a closer look

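In 4 of 43 named members 1 of the 6 NM-R spleens lay far from the others, with a gap over Dixon's critical value for 6 samples at the 95% level. Chance alone gives this in about 1 in 20 such tests. Cd14 was highest in ssNM-R 6 at 9167 normalized counts, against 2384 to 4918 in the other NM-Rs. Tlr1 was lowest in the same spleen at 203, against 514 to 674. Clec6a had its single NM-R read in ssNM-R 6, which is 0.632 normalized counts, and was at 0 in the other 5. Its gap therefore fills the whole range, and the rate of 1 in 20 does not apply to it. Tirap was lowest in ssNM-R 2 at 163 normalized counts, against 231 to 264 in the other NM-Rs. Cd14, Tlr1, Clec6a and Tirap all kept their calls against mice without the spleen in question.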

How the results depend on the processing

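Of 249 alternative counts of members called, 247 were within 1.5 times of the reported count. The other 2 came from DESeq2 between lsNM-R and ssNM-R, which called 2 members, both higher in lsNM-R, against 0 by limma and by edgeR. With 1 spleen left out, 33 to 40 members were called between NM-R and mouse (16 to 20 higher, 16 to 20 lower), 32 to 36 between ssNM-R and mouse, 31 to 39 between lsNM-R and mouse, and 0 between the cohorts. In the same order, those fits called 73.0% to 78.9%, 70.5% to 75.9%, 69.6% to 76.6% and 0% of all genes. For 48 results of named genes, 962 alternative values were computed: 926 stayed on the same side of the threshold, 31 fell short of it and 5 newly passed it. One value had another sign, that of Irak4, which was not called, at 0.04 under upper quartile scaling against -0.07. These 36 changes belong to 10 results, those of Card19, Clec11a, Tlr2, Tlr4, Irak3, Myd88, Tirap and Casp2 against mouse and of Clec4d and Lbp between the cohorts. Upper quartile scaling moved the table-wide median of the log2 fold changes from 0.01 to 0.11. The members called were then 21 higher and 16 lower, where 53.8% of the calls over all genes were higher. With the depth class as a term 34 members were called between NM-R and mouse, where 75.8% of all genes were called.

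The replicate block was fitted although the numbers do not pair the animals: mouse and ssNM-R share 2 numbers, mouse and lsNM-R 1, and the deviations of same-numbered spleens correlated at 0.01, -0.0045 and 7.6e-04. With the replicate block 39 members were called between NM-R and mouse, 20 higher and 19 lower, at a correlation within numbers of 0.02. Of all genes, 78.7% were called in that fit. Depth limits the genes near the floor (Card14, Clec3a, Clec4f and Clec6a), for which only reads and counting intervals carry information.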
